A study of Mus musculus with 6 samples.

Results

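The genes described here mark T cells and cytotoxic lymphocytes: Cd3d, Cd3g, Cd2, Cd8a, Cd8b1, Lck, Zap70, Gzma, Gzmb and Prf1. They were taken as every probe set of the array whose single gene symbol in the probe annotation is one of these 10 names. This gave 16 of 45037 non-control probe sets, for 9 of the 10 genes. No probe set carried the symbol Lck, so Lck is not analysed here. The array has 5 probe sets for Cd8a, 3 for Zap70 and 2 for Prf1, and the other 6 genes have 1 each.

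The values come from whole liver of mice fed a high-fat diet (TD88137) for 2 weeks and aged 4 to 8 weeks, with 1 Affymetrix array per sample. The WT group is 3 samples from wild-type B6 mice, with the titles WT78, WT30 and WT31. The LIGHT Tg group is 3 samples from mice with a LIGHT transgene, titled Tg77, Tg34 and Tg35. The free-text description of the LIGHT Tg samples speaks of wild-type B6 animals, and the groups here follow the titles and source names. Because that description does not match the titles, the strain of the transgenic mice is uncertain. A difference in genetic background could therefore not be told apart from the transgene. Neither the promoter of the transgene nor the line is named in the labels. LIGHT, encoded by Tnfsf14, is a ligand of the tumour necrosis factor family that activated T cells display, and published LIGHT transgenic lines express it in T cells. The comparison asks how the liver content of T cell and cytotoxic transcripts differs between the genotypes on this diet.

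T cells recognise antigen through a receptor that has no signalling tail of its own and relies on the CD3 chains, among them CD3 delta and CD3 gamma. The coreceptor CD8, a dimer of the products of Cd8a and Cd8b1, brings the kinase Lck to the receptor. Lck phosphorylates the CD3 chains, and Zap70 docks on them and passes the signal on. Cytotoxic T cells and natural killer (NK) cells kill by releasing perforin, encoded by Prf1, and granzymes, among them the products of Gzma and Gzmb. Liver holds many NK cells and resident T cells in its sinusoids, but these are a minor part of its RNA beside hepatocytes.

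The MAS5 signals of an array summed to between 30979284 and 32707197, and correlations between arrays over all probe sets lay between 0.875 and 0.956. The hepatocyte list was bright, with 8 of its 10 genes matched and a summed signal between 150141 and 165066 on every array, as the tissue label says. The numbers in the titles form 2 sets that each hold both genotypes, 77 and 78 against 30 to 35, and the labels do not say what the numbers stand for. Xist, an RNA made from the inactive X in females, had signals of 444 on WT78 and 407 on Tg77 at its brightest probe set, against 7993 to 9714 on the other 4 arrays, which reads as male for WT78 and Tg77 and as female elsewhere. Each genotype has 1 array of the pair, and differences are therefore also given within each set. The labels do not state outright that the 6 samples come from 6 animals. The sex pattern reads as more than 1 animal in each genotype. The p-values cover the scatter among these arrays, part of which may be technical.

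No detection calls were used, so a low signal could not be called absent. As a measure of what the array shows where no transcript should be present, 20 probe sets for 9 Y-linked genes were read on the 4 arrays titled 30 to 35, a reference chosen after seeing the data. Their signals had a median of 41.3, a 90th percentile of 167 and a highest value of 431. Some of these genes have close relatives on the X chromosome. On WT78 and Tg77, which read as male, the same probe sets had a median of 142. That is below the 90th percentile of 167, so this reference does not divide present from absent transcripts. Against that reference, 6 of the 16 probe sets lay below the 90th percentile on every array: those of Cd3d, Cd3g, Cd2 and Cd8b1 and 2 of the 5 for Cd8a. Another 6 lay above it on every array, namely the 3 of Zap70, 2 of Cd8a and that of Gzma. The other 4, for Gzmb, Prf1 (both) and Cd8a, lay on either side of it. The 90th percentile is close to the median level of all probe sets, a signal of 167.4, so these counts do not set the genes apart from others. The brightness of a probe set depends on its probes, so the genes are not ranked by level.

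Most of the T cell and cytotoxic genes showed no difference between LIGHT Tg and WT liver that passed the test. In a limma fit over all 45037 probe sets, 1 of the 16 passed a false discovery rate (FDR) of 5%, a probe set for Zap70 that was 2.66-fold higher in LIGHT Tg. Over the whole array 0.457 percent of probe sets passed, 0.302 percent higher and 0.155 percent lower. With the title-number set in the fit the count was again 1 of 16, against 2.42 percent of all probe sets, 1.31 percent higher. The adjusted p of the other 15 lay between 0.523 and 0.999. Counted by gene, with each gene read at its probe set of highest mean, 0 of 9 passed in that limma fit (1 at an unadjusted p below 0.05, Gzmb), against 0.654 percent of 18193 genes. The plot of signals shows these values array by array.

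**Figure D1:**
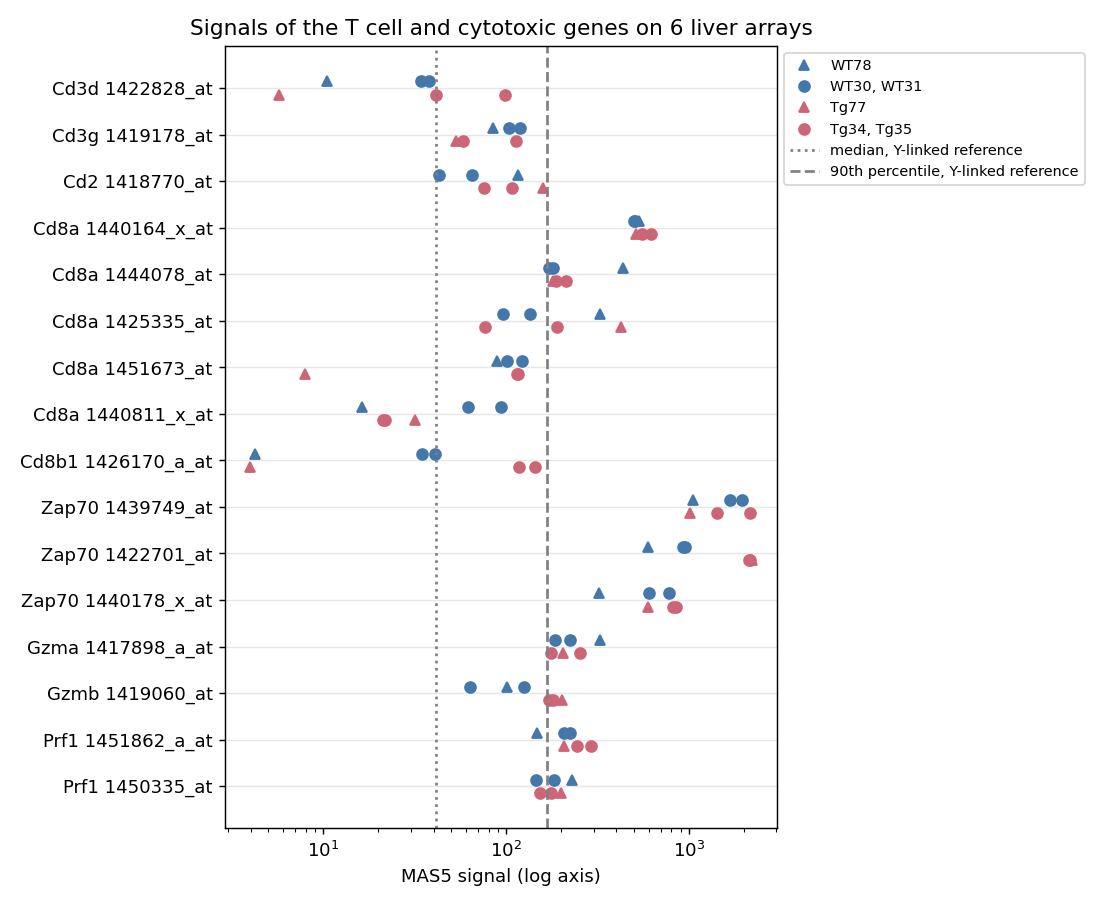
MAS5 signal (log axis) of the 16 probe sets on each array, WT in blue and LIGHT Tg in red, with triangles for the arrays titled 77 and 78; the vertical lines mark the median (41.3) and 90th percentile (167) of the Y-linked reference. At the second Zap70 row the LIGHT Tg arrays sit between 2119 and 2198, above the WT arrays at 598 to 950, and Gzmb is the other row where the genotypes do not overlap.

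The CD3 genes encode the signalling chains of the T cell receptor complex. At Cd3d (probe set 1422828_at) the signals were 10.5, 34.2 and 37.9 in WT78, WT30 and WT31 and 5.74, 98.1 and 41.4 in Tg77, Tg34 and Tg35. The lowest values of both genotypes were those of the arrays titled 77 and 78, and the groups overlapped. The log2 difference, LIGHT Tg minus WT, was 0.26 ± 1.08 (SE, n = 3 per group), with a 95% interval of -2.27 to 2.79 (limma adjusted p = 0.999).

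At Cd3g (1419178_at) the signals were 84.4, 119 and 104 in WT and 53.1, 57.8 and 113 in LIGHT Tg. Tg77 and Tg34 lay below all WT values and Tg35 among them. The log2 difference was -0.53 ± 0.449, with an interval of -1.58 to 0.51 (adjusted p = 0.915). Cd3d and Cd3g are neighbours that run in opposite directions, with annotated starts 1355 bases apart in RefSeq (GRCm38.p6), and their estimates had opposite signs, neither past the test.

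Cd2 encodes an adhesion receptor of T and NK cells that binds CD48 in the mouse. Its probe set (1418770_at) had 116, 64.6 and 43 in WT and 158, 108 and 75.5 in LIGHT Tg. Within each title-number set the LIGHT Tg values lay above the WT values, while over the 6 arrays the groups overlapped. The log2 difference was 0.66 ± 0.517 (interval -0.54 to 1.87, adjusted p = 0.899), with 0.44 between Tg77 and WT78 and 0.77 among the arrays titled 30 to 35.

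The 5 probe sets of Cd8a gave no common direction: their log2 differences were 0.12, -0.30, 0.19, -1.13 and -0.90, all with adjusted p between 0.906 and 0.998. The brightest (1440164_x_at) was the steadiest of the 16 by its error, with 531, 500 and 506 in WT and 513, 617 and 550 in LIGHT Tg. Its log2 difference was 0.12 ± 0.173, and the interval of -0.28 to 0.53 leaves room for a change of up to 1.44-fold upwards. The suffix _x_ marks a probe set with probes that can match other transcripts, so this signal may include other transcripts.

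The probe set 1425335_at had 324, 95.8 and 134 in WT and 425, 190 and 76.1 in LIGHT Tg. The high values were those of WT78 and Tg77. At 1451673_at the signals were 89.3, 101 and 122 in WT and 7.9, 115 and 116 in LIGHT Tg, so that the estimate of -1.13 ± 1.02 came from Tg77, and the difference was 0.05 in the arrays titled 30 to 35. Both of these probe sets were annotated to the same transcript record of Cd8a. They moved apart on Tg77, which had the highest value at the first and the lowest at the second.

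At 1444078_at WT78 had 432, and the other 5 arrays lay between 171 and 212. At 1440811_x_at WT30 and WT31, with 61.7 and 93.7, stood above the other 4 arrays, at 16.3 to 31.8, and the difference stayed negative with any single array left out.

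Cd8b1, the beta chain of CD8 and in the mouse a marker of CD8 T cells that CD8-positive dendritic cells lack, had signals (1426170_a_at) of 4.2, 34.6 and 40.7 in WT and 3.98, 144 and 117 in LIGHT Tg. In the arrays titled 30 to 35 both LIGHT Tg values lay above both WT values, a log2 difference of 1.79 ± 0.386 that did not pass (adjusted p = 0.131). In the pair the values were alike, with a difference of -0.08. Over the 6 arrays the estimate was 1.17 ± 1.51 (interval -2.36 to 4.69, adjusted p = 0.965), and every value lay below the 90th percentile of the Y-linked reference.

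Zap70 is the kinase that binds the phosphorylated CD3 chains, and it is found in T cells and NK cells. At 1422701_at its signals were 598, 929 and 950 in WT78, WT30 and WT31 and 2198, 2141 and 2119 in Tg77, Tg34 and Tg35. The LIGHT Tg values lay close together and all above the WT values. The difference was 1.41 ± 0.204 on the log2 scale, a rise of 2.66-fold with a 95% interval of 1.91 to 3.7 (adjusted p = 0.0427, and 0.00906 with the title-number set in the fit). It was 1.88 between Tg77 and WT78 and 1.18 ± 0.102 among the arrays titled 30 to 35 (adjusted p = 0.0189). The call was lost without WT30 (adjusted p = 0.141), WT31 (0.123), Tg77 (0.107), Tg34 (0.177) or Tg35 (0.211) and held without WT78 (0.0261). It was also lost without the variance trend (0.200) and with robust fitting (0.0511), while the log2 difference stayed between 1.18 and 1.53 in these fits.

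The other probe sets of Zap70 did not pass the test. At 1439749_at the signals were 1045, 1678 and 1948 in WT and 1005, 2142 and 1416 in LIGHT Tg, which overlapped, with a log2 difference of -0.05 ± 0.328 (interval -0.82 to 0.71, adjusted p = 0.999). At 1440178_x_at they were 321, 774 and 601 in WT and 596, 850 and 815 in LIGHT Tg, with a difference of 0.49 ± 0.336 (adjusted p = 0.866, and 0.25 with the title-number set). WT30 and WT31 lay above Tg77, while within each title-number set the LIGHT Tg values lay above the WT values, by 0.89 between Tg77 and WT78 and 0.29 among the arrays titled 30 to 35. The contrast between probe sets was read within arrays as the log2 ratio of 1422701_at to each of the other 2. Against 1439749_at it averaged -0.90 in WT and 0.57 in LIGHT Tg, and against 1440178_x_at 0.61 and 1.53. Each time the LIGHT Tg ratios all lay above the WT ratios, and the two-sided exact permutation p was 0.1, the smallest that 3 against 3 arrays can give. The probe set 1422701_at was chosen because it passed in these same arrays, so this separation adds no support of its own. The call is that of 1422701_at. Which of the transcripts annotated at the locus each probe set reads was not examined.

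RefSeq gives Zap70 3 starts and Gzmb 1 in the mouse assembly GRCm38.p6. Of the 10 genes, 8 have a window in the table of promoters used here. Windows of 250 bases before to 50 after the start are shown for these genes, the only ones of the 9 with a probe set whose genotypes did not overlap. Capitals mark matches on either strand to AGGAAG (a core that ETS factors recognise) or TGTGGT (a core that RUNX factors recognise), families that act in T cell gene control; neither window holds both motifs, so none overlap. The Zap70 window is that of the most upstream start, at chr1:36761548-36761847 on the plus strand, and the Gzmb window is at chr14:56262285-56262584 on the minus strand, each 5′ to 3′ on the strand of its gene.
Zap70: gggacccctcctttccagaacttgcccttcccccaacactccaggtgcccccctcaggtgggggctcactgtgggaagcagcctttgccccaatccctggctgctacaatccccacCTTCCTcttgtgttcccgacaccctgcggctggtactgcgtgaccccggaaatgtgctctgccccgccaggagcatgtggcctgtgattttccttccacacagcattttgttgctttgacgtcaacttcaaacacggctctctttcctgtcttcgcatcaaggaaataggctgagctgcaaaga
Gzmb: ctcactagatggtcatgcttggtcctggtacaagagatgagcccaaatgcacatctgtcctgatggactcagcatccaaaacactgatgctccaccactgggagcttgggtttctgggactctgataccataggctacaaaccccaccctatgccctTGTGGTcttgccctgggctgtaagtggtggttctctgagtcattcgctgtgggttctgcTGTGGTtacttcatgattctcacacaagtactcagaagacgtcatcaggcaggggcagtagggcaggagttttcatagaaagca
This Zap70 window has 1 match to AGGAAG and 0 to TGTGGT, and the Gzmb window has 0 and 2. The window of the second Zap70 start has 2 and 1, and that of the third has 0 of either. Over all 32851 windows of the table, 35.4 percent have a match to AGGAAG and 16.8 percent to TGTGGT. Among the 11 windows of the 8 genes, 6 and 5 have one. A match of these letters is a description of the sequence.

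Neighbouring genes were read in RefSeq gene order, 5 protein-coding genes on each side of Zap70. Of these 10 genes, 8 had probe sets of their own, 16 in all, and 0 of the 16 passed the limma test, with or without the title-number set in the fit. Their log2 differences lay between -0.471 and 1.46, and at 3 the genotypes did not overlap, all 3 lower in LIGHT Tg, against 7.02 percent of all probe sets with every LIGHT Tg value below every WT value. They were 1435613_x_at and 1456588_x_at, both of Cox5b, and 1426355_a_at of Coa5. The other probe sets of Cox5b read both ways, at -0.05, -0.25, 0.07 and 1.46, and that of Coa5 had 0.02. The 3 are therefore not read as a trait of the region. By unadjusted p below 0.05 in the fit of genotype alone, 1 of the 16 passed, a probe set of Coa5.

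Granzyme B, a protease that triggers apoptosis in target cells, was the other gene whose genotypes did not overlap. At Gzmb (1419060_at) the signals were 101, 63.1 and 125 in WT and 202, 172 and 179 in LIGHT Tg. Every LIGHT Tg value lay above every WT value. The log2 difference was 0.99 ± 0.369, 1.98-fold with an interval of 1.09 to 3.6, with 1 between Tg77 and WT78 and 0.98 among the arrays titled 30 to 35. It did not pass over the array (adjusted p = 0.523, unadjusted p = 0.0297; 0.210 adjusted with the title-number set). An unadjusted p below 0.05 was reached by 7.92 percent of all probe sets, and 2 of the 16 here, Gzmb and Zap70.

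At Gzma and Prf1 the genotypes overlapped. Gzma, whose product is the other abundant granzyme of NK cells, had signals (1417898_a_at) of 326, 184 and 222 in WT and 204, 176 and 253 in LIGHT Tg. The difference was -0.18 ± 0.312 (interval -0.91 to 0.54, adjusted p = 0.979). Prf1 encodes perforin, the pore-forming protein through which granzymes enter the target cell. Its probe set 1451862_a_at had 148, 223 and 208 in WT and 207, 243 and 290 in LIGHT Tg, and 1450335_at had 230, 183 and 146 in WT and 199, 175 and 152 in LIGHT Tg. Their log2 differences were 0.36 ± 0.289 (adjusted p = 0.903) and -0.07 ± 0.302 (adjusted p = 0.999), and the groups overlapped at each.

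Across the 16 probe sets, 9 had a positive and 7 a negative log2 difference, where 49.3 percent of all probe sets were positive. At 2 of them, for Zap70 and Gzmb, the LIGHT Tg arrays stood entirely above the WT arrays, and at 0 entirely below, where 6.70 percent of all probe sets lay above. Read at 1 probe set a gene, 6 of the 9 genes were positive and the median was 0.26, against 1.23e-04 over 18193 genes. That median was -0.0568 between Tg77 and WT78, 0.301 among the arrays titled 30 to 35, and 0.11 without WT78, 0.48 without WT30, 0.39 without Tg77, 0.05 without Tg34 and 0.14 without Tg35. In whole liver, a change in the number of cells of a type and a change in RNA per cell cannot be told apart. The plot of differences sets the estimates of all 16 side by side.

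**Figure D2:**
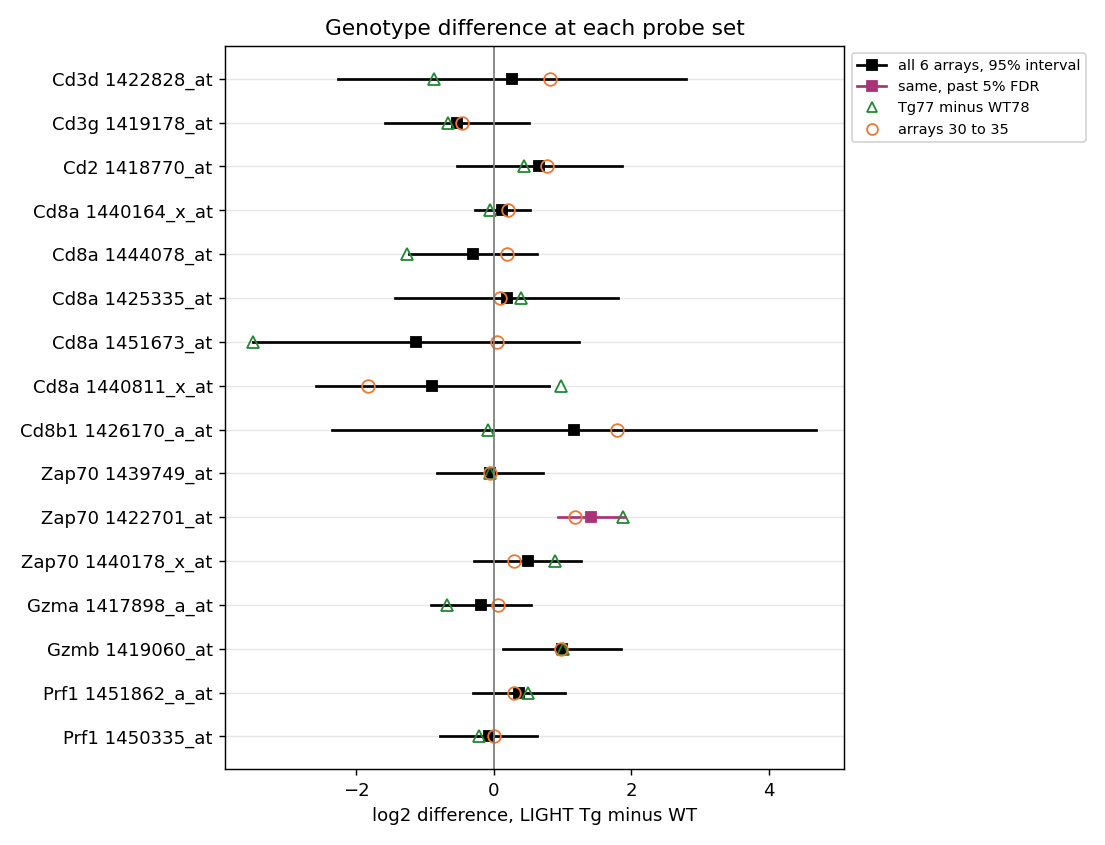
Log2 difference (LIGHT Tg minus WT) of each probe set over 6 arrays with its 95% interval (squares), in the pair Tg77 and WT78 (triangles) and in the arrays titled 30 to 35 (circles). The interval of Zap70 1422701_at, 0.94 to 1.89, and that of Gzmb, 0.13 to 1.85, lie above 0, and those of the other 14 include 0.

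Some of these genes also differed between the title-number sets. In the fit with genotype and set, 5 of the 16 probe sets passed 5% FDR for the set, against 16.3 percent over the array; 4 were lower on the arrays titled 77 and 78 (9.49 percent of all) and 1 higher (6.82 percent of all). The interaction of genotype and set passed at 0 of the 16 in limma, against 0.00666 percent. Cd8b1 was 17.1-fold lower on the arrays titled 77 and 78 than on the other 4 (log2 difference -4.09 ± 0.571, limma adjusted p = 0.00773) and Cd3d 6.18-fold lower (-2.63 ± 0.618, adjusted p = 0.0329). The Zap70 probe sets 1439749_at and 1440178_x_at were lower by 1.73-fold and 1.72-fold (adjusted p = 0.0282 and 0.0346). The Cd8a probe set 1425335_at was 3.18-fold higher (adjusted p = 0.0347). The Cd8b1 and Cd3d signals were below the 90th percentile of the Y-linked reference on all arrays, so their folds rest on low values. Sex pattern and title number go together in these arrays, and cannot be told apart.

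**Figure D3:**
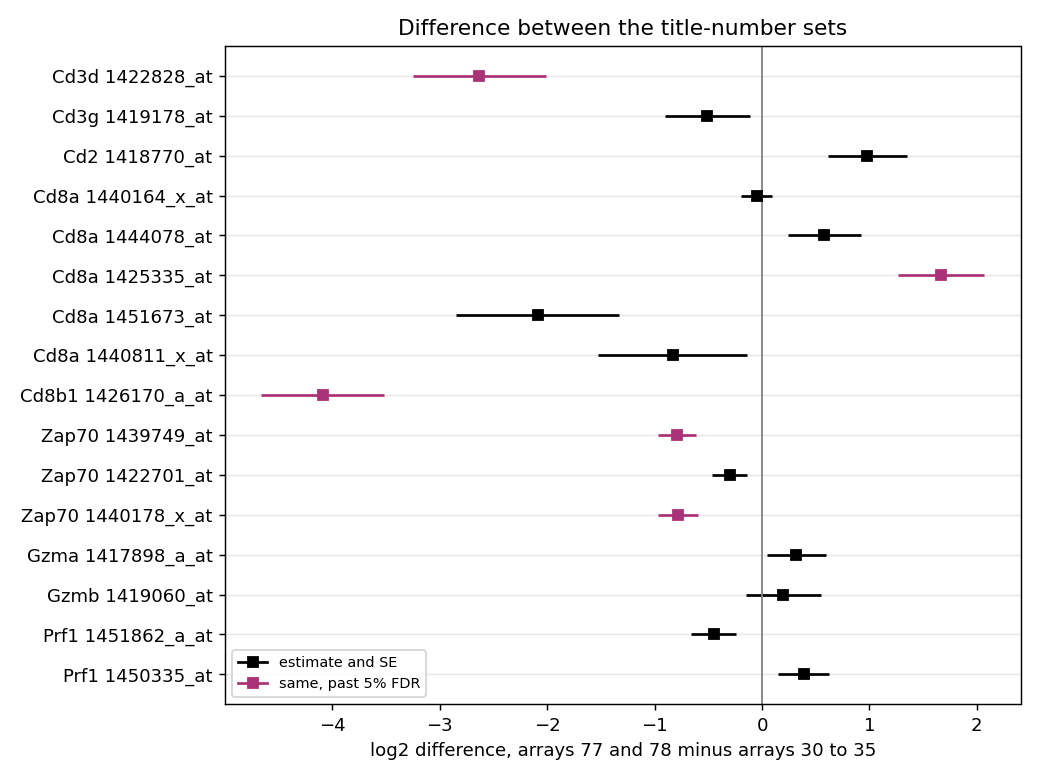
Log2 difference of each probe set between the arrays titled 77 and 78 (1 WT, 1 LIGHT Tg) and those titled 30 to 35 (2 of each), with the SE of the fit, and in purple where it passed 5% FDR. Cd8b1 and Cd3d have the largest shifts, -4.09 and -2.63, and 4 of the 5 that passed were lower in the pair.

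Other T cell genes were read from lists, at the probe set of highest mean for each gene. Of 28 further genes of the T cell receptor and its signalling, 21 were matched, and 0 of these 21 passed the limma test with or without the title-number set (0 at an unadjusted p below 0.05), against 0.654 and 3.25 percent of all genes. Their median log2 difference was 0.0255, with 12 positive and 9 negative. Cd3e, the CD3 epsilon chain, had 92.5, 62.5 and 121 in WT and 93.9, 56.1 and 112 in LIGHT Tg, and Cd4, the coreceptor of helper T cells, had 83.3, 44.3 and 42 in WT and 54.7, 38.5 and 45.1 in LIGHT Tg. Both overlapped. The list's brightest genes by mean were the adaptor Fyb, with a log2 difference of -0.21 ± 0.321, and the kinase Fyn, with 0.22 ± 0.196. The summed signal of the list was 3161 to 3615 in WT and 3199 to 3637 in LIGHT Tg.

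Regulators of T cell development and helper fate gave a like result. Of 18 genes, 16 were matched and 0 passed in either limma fit (0 at an unadjusted p below 0.05), with a median of 0.179, 11 positive and 5 negative. S1pr1, the receptor for exit from lymphoid tissue that endothelium also carries, had 0.27 ± 0.452, and the transcription factor Ets1 had 0.34 ± 0.509. Both were lower on WT78 and Tg77, with S1pr1 at 949 and 952 against 1847 to 2711 on the others. The list's summed signal was 3864 to 6110 in WT and 4046 to 7394 in LIGHT Tg.

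Of 29 further NK cell and cytotoxic genes, 25 were matched and 1 rose, Klra1, against 0.654 percent of all genes; 2 reached an unadjusted p below 0.05, Klra1 and Gzmc. Of these, 14 were positive and 11 negative, and the median was 0.0223 (0.323 between Tg77 and WT78, -0.106 among the arrays titled 30 to 35). Klra1 encodes an inhibitory Ly49 receptor of NK cells, in a family of close paralogs whose genes differ between mouse strains. Its signals (1428056_at) were 3.5, 3.6 and 2.1 in WT and 36, 51.5 and 25.2 in LIGHT Tg. They did not overlap, and the log2 difference was 3.60 ± 0.540 (adjusted p = 0.0472, and 0.0213 with the title-number set). Of its 6 values, 5 lay below the median of the Y-linked reference. With an offset of 37.5 added before log2 the difference was 0.87 (adjusted p = 0.0956), and the call was lost without any single array (adjusted p between 0.0821 and 0.207). Other members of the family read the other way without passing, Klra7 at -0.30 ± 0.509 and Klra8 at -1.18 ± 0.679. Among further granzyme genes, Gzmk had 91.5, 102 and 118 in WT and 219, 147 and 136 in LIGHT Tg (0.66 ± 0.345, adjusted p = 0.749). These did not overlap, and 6.70 percent of all probe sets lay entirely above WT in this way. Gzmc had 11.8, 3 and 2.1 in WT and 32.2, 11.6 and 29.4 in LIGHT Tg, all below the median of the Y-linked reference (2.40 ± 0.793, adjusted p = 0.423), and Gzmm had -0.28 ± 0.389. Cd7 of the same list lay entirely below WT, with 36.6, 38.4 and 40.3 in WT and 31.6, 36.1 and 31.2 in LIGHT Tg (-0.23 ± 0.448, adjusted p = 0.985). Of all probe sets 7.02 percent lay entirely below. Srgn, a proteoglycan of cytotoxic granules and of other blood cells, and Serpinb9, an inhibitor of granzyme B, were the list's brightest and had -0.09 ± 0.191 and 0.24 ± 0.290.

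Markers of other blood cells were read beside the Zap70 and Gzmb values. Of 15 pan-leukocyte genes, 14 were matched and 0 passed in either limma fit (0 at an unadjusted p below 0.05), with a summed signal of 9186 to 11775 in WT and 7698 to 11898 in LIGHT Tg; Ptprc, which encodes CD45, had 0.00 ± 0.229 and Cd53 -0.05 ± 0.223. Of 17 B cell and plasma cell genes, 14 were matched and, against 0.654 percent of all genes, 1 rose. This was Ighm, the immunoglobulin mu heavy chain, with 399, 414 and 330 in WT and 5978, 3872 and 4375 in LIGHT Tg (3.62 ± 0.201, adjusted p = 9.48e-04), at its probe set of highest mean; of its 11 probe sets, 1427351_s_at also rose (4.84 ± 0.536, adjusted p = 0.0171). The summed signal of that list was 7464 to 8238 in WT and 15803 to 17850 in LIGHT Tg, higher in LIGHT Tg as the Zap70 signal was, and its part in the Zap70 result was not tested. The median of the list was 0.104, with 9 genes positive and 5 negative, and the sum holds the bright genes Ighm and Sdc1. Sdc1, a marker of plasma cells that hepatocytes also make, had 3894, 5351 and 4955 in WT and 8917, 8992 and 9174 in LIGHT Tg at its probe set of highest mean (0.94 ± 0.149, adjusted p = 0.0526, and 0.00908 with the title-number set). Its probe set 1415944_at rose (0.83 ± 0.120, adjusted p = 0.043).

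Of the other cell type lists, 0 genes passed among 15 Kupffer cell and macrophage, 8 dendritic cell, 11 neutrophil and 8 hepatocyte genes matched, in either limma fit. Their medians were -0.079, -0.0295, -0.0624 and -0.0172. Their brightest genes included the macrophage receptor gene Csf1r at -0.08 ± 0.174, Cd5l at -0.30 ± 0.227, Batf3 at 0.12 ± 0.201, Zbtb46 at 0.46 ± 0.309, S100a8 at -0.05 ± 0.752, Apoa1 at 0.00 ± 0.126 and Fgb at -0.01 ± 0.121. Lcn2 had signals of 13350, 12825 and 13363 in WT and 14159, 926 and 7405 in LIGHT Tg, low on Tg34. The neutrophil list summed to 2968 at its lowest on a LIGHT Tg array, against 16052 to 19673 in WT and up to 21532 in LIGHT Tg. That sum holds the bright gene Lcn2, which made up most of it on every WT array, so it is not a measure of the list as a whole. Of 7 thymus and immature T cell genes, 0 passed without and 1 with the title-number set, against 0.654 and 3.25 percent of all genes. The gene that passed was Dntt, the enzyme that adds bases to receptor gene joints in immature lymphocytes. At its probe set of highest mean it had 445, 344 and 399 in WT and 892, 743 and 1255 in LIGHT Tg (1.26 ± 0.238, adjusted p = 0.0983, and 0.037 with the set). Its other probe sets had 2.81 ± 0.624 (1449757_x_at, adjusted p = 0.153, and 0.0398 with the set) and 2.04 ± 1 (1420166_at, 0.712 and 0.0964). Cd1d1, which presents lipids to natural killer T cells and is broadly expressed, had -0.88 ± 0.222 (adjusted p = 0.222), and the recombinase gene Rag1 had signals of 2.3 to 22.9.

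The ligand and its receptors were read on the same arrays. Tnfsf14, at its brighter probe set, had 7.7, 11.8 and 7.43 in WT and 55.7, 19.3 and 26.7 in LIGHT Tg, which did not overlap (1.80 ± 0.594, adjusted p = 0.423). Of all probe sets, 6.70 percent lay entirely above WT in this way. Tnfsf14 lay below the median of the Y-linked reference on every array but Tg77. Its other probe set, 1450298_at, had 4.25, 3.75 and 7.83 in WT and 2.3, 3.1 and 5.6 in LIGHT Tg (-0.55 ± 0.543, adjusted p = 0.942); no source used here says whether the transgene's RNA carries its probes. Its receptor gene Tnfrsf14 had 0.66 ± 0.542 (adjusted p = 0.908), and Ltbr, the lymphotoxin beta receptor, -0.36 ± 0.336 (adjusted p = 0.931). Of 16 genes of LIGHT, its receptors and lymphocyte homing, 14 were matched and 0 passed in either limma fit (1 at an unadjusted p below 0.05, Tnfsf14). The median was 0.153 (-0.06 between Tg77 and WT78, 0.183 among the arrays titled 30 to 35). Vcam1, an adhesion molecule of activated endothelium and with Ltbr the brightest of this list, had 0.31 ± 0.188. Cxcr6 of this list had 178, 209 and 203 in WT and 122, 158 and 168 in LIGHT Tg (-0.41 ± 0.287, adjusted p = 0.876). It lay entirely below WT, as 7.02 percent of all probe sets did.

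**Figure D4:**
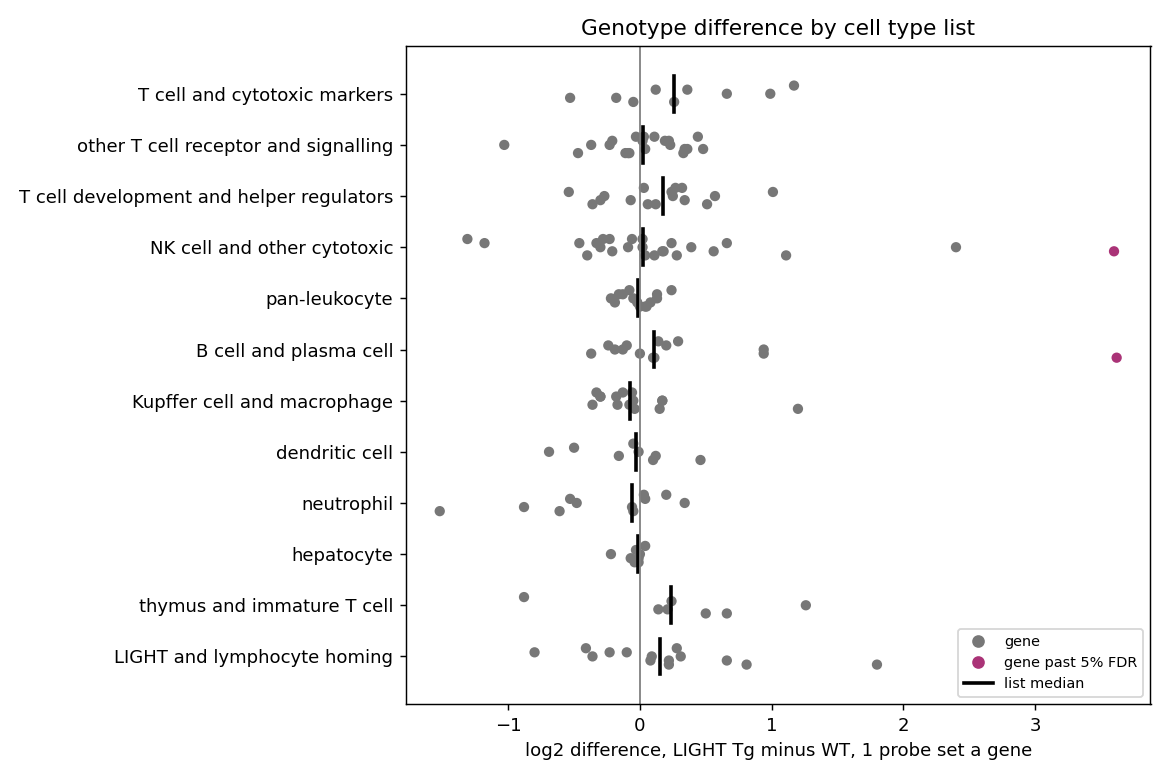
Log2 difference (LIGHT Tg minus WT) of each matched gene at 1 probe set, by list, with the list median as a black bar and genes past 5% FDR in purple. Klra1 (3.60) and Ighm (3.62) are the genes past the threshold, and the medians of all lists lie between -0.079 and 0.26.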

How the data were processed

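Liver RNA was hybridised to 6 Affymetrix arrays, 3 for WT and 3 for LIGHT Tg. The deposited values are the authors' MAS5 intensities, 1 linear signal per probe set; the submitters' processing notes name MAS5 without a version, and detection calls were not used here. Trimmed mean signals of 490 to 505.1, leaving out 2 percent at each end, show scaling per array. Of 45101 probe sets 64 controls were left out. The platform annotation named 34945 of the other 45037 by 1 symbol, 932 by several and 9160 by none; genes were named only from probe sets with 1 symbol.

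Before taking log2, a floor of 1 was applied, which raised 106 values. All 45037 probe sets were fitted with limma 3.58.1 (R 4.3.3), lmFit and eBayes with a variance trend, two-sided, Benjamini-Hochberg adjusted, at 5% FDR. No filter on low signals was used, because 7 of the 16 probe sets of the members lie below the median filter level (a signal of 167.4) and 9 above it; that filter is an alternative. A log2 difference is LIGHT Tg minus WT with its moderated SE. Lists were read at the probe set of highest mean for each gene, with counts and medians and no set test. The fit was also run on simulated data with independent noise for each probe set, and no result given here rests on that run. Exact permutation used scipy 1.17.1 (Python 3.11.15) and figures matplotlib 3.10.9. Promoter sequences are RefSeq's.

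The members and lists were chosen with earlier results of these data known. Named genes are all members; Tnfsf14, Tnfrsf14 and Ltbr; from 3 lists of T cell and NK genes those past 5% FDR in either fit and the 2 brightest; from other lists the 2 brightest and those past 5% FDR. Cd3e, Cd4, Cd7, Gzmc, Gzmk, Gzmm, Klra7, Klra8, Rag1, Cxcr6, Cox5b and Coa5 were named outside this rule. Replicate numbers are the title numbers. The number of arrays limits the precision.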

Additional observations from a re-analysis of the deposited data

Results flagged for a closer look

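At 5 probe sets the genotype difference ran one way in every comparison of the arrays titled 30 to 35 and the other way between Tg77 and WT78. The difference in the arrays titled 30 to 35 was 0.82 for Cd3d and 1.79 for Cd8b1, against -0.87 and -0.08 in the pair. For Cd8a it was 0.21 at 1440164_x_at, 0.19 at 1444078_at and -1.83 at 1440811_x_at, against -0.05, -1.26 and 0.97 in the pair. The pair differences of -0.08 for Cd8b1 and -0.05 for Cd8a 1440164_x_at are small, so their signs carry little. The same count over all probe sets was not made, so the count of 5 is not read as a trait of these genes. The interaction of genotype and title-number set, tested with limma over all probe sets, did not pass at any of the 5 (adjusted p between 0.353 and 0.759), and the pair holds 1 array of each genotype.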

How the results depend on the processing

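Over the array, 206 probe sets passed 5% FDR. There were 30 without the variance trend, 1135 with array weights, 1090 with the title-number set as a block, 458 in the arrays titled 30 to 35 alone, and between 26 and 231 with 1 array left out. The members' count of 1 probe set, that of Zap70, was 0 without the variance trend and with robust fitting, and 0 or 1 with 1 array left out. The count by gene was 0 under every alternative run. The median over the members was 0.03 with the filter at the median, where only 4 of the 9 genes remain to be tested, and between 0.05 and 0.48 with 1 array left out.

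Of the 16 probe sets, 8 kept their sign under every alternative run: Zap70 1422701_at and 1440178_x_at, Prf1 1451862_a_at, Cd3g, Cd2, Cd8a 1440811_x_at, Cd8b1 and Gzmb. Signs turned at the others, none past the test. With array weights the value was 0.05 for Cd8a 1444078_at, -0.01 for Cd8a 1425335_at, 0.01 for Gzma and 0.01 for Prf1 1450335_at. In the arrays titled 30 to 35 alone it was 0.19 for Cd8a 1444078_at, 0.05 for Cd8a 1451673_at and 0.06 for Gzma. As the mean of all probe sets of the gene it was -0.40 for Cd8a and 0.62 for Zap70. With 1 array left out, turned values lay between -0.63 and -0.01 for Cd3d (-0.33 without WT78; range to 1.42), were 0.14 for Cd8a 1444078_at (range from -0.53), -0.18 and -0.42 for Cd8a 1425335_at (to 0.82), 0.16 for Cd8a 1451673_at (from -1.78), 0.02, 0.13 and 0.21 for Zap70 1439749_at (from -0.34), 0.05 for Gzma (from -0.37) and 0.09 and 0.03 for Prf1 1450335_at (from -0.23). The causes were not tested. The groups share no replicate numbers, and the title-number set was the block used.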
